A study of Mus musculus with 2 samples.

Results

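The trefoil factor genes Tff1, Tff2 and Tff3 and the mucin genes Muc6, Muc5ac and Muc2 were followed across 2 droplet-based single-cell RNA-seq libraries of mouse intestinal lamina propria. They are 6 of the 31053 genes in the deposited count matrices, and they were chosen by measured values, since earlier results of these data had shown Tff2 UMIs (unique molecular identifiers, 1 per captured transcript) gathered in few barcodes. The concentration and level of Tff2 are therefore descriptions here. Both libraries came from C57BL/6 mice aged 11 weeks that carried ApcMin/+, the germline Apc allele that gives intestinal adenomas. The ApcMin library was Lef1 +/+, and the VApcMinL library was Lef1 fl/fl with Villin-Cre, which deletes the Wnt pathway transcription factor Lef1 in the intestinal epithelium and not in the stroma. How many mice were pooled for a library is not stated in the sources used here. Cells were released with EDTA for 20 min and Liberase TL for 60 min and sorted as DAPI-, Ter119-, Epcam- and CD45-, so epithelial cells were meant to be left out. With 1 library per genotype no difference has a replicate check, and all intervals below are 95% and cover counting error only.

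Trefoil factors are small secreted peptides with a looped trefoil domain that are stored and released with mucus and take part in mucosal repair. Tff1 is the partner of Muc5ac in surface mucous cells of the stomach, Tff2 that of Muc6 in mucous neck cells, antral glands and the Brunner glands of the duodenum, and Tff3 that of Muc2 in intestinal goblet cells. The 3 trefoil genes lie next to each other on the minus strand of chromosome 17, from Tff3 at chr17:31125306-31129646 over Tff2 at chr17:31141049-31144282 to Tff1 at chr17:31161395-31165277 (GRCm38, GENCODE). The 3 mucin genes lie together on chromosome 7, with Muc6 at chr7:141633456-141655319 on the minus strand, Muc2 at chr7:141690340-141754693 and Muc5ac at chr7:141788972-141819231 on the plus strand. All 6 are protein-coding.

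Barcodes with at least 1000 UMIs were taken as cells. There were 7844 in ApcMin, with 80873618 UMIs and a median of 9461 per barcode, and 9593 in VApcMinL, with 85394954 UMIs and a median of 6383. Between the libraries 25 barcodes were shared, none of them rich in a member. The empty droplets, barcodes of ranks 45000 to 90000 by UMIs, held 3614552 UMIs in ApcMin and 5158368 in VApcMinL. A barcode was called rich in a gene when it had at least 10 UMIs of it and its share of the barcode was at least 10 times the share in the empty droplets of the same library. Levels are UMIs per 1000000 UMIs (CPM) of the barcodes stated.

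Tff2 was the member with the most UMIs in cells of both libraries, and its level in cells stood on opposite sides of the empty droplets in ApcMin and VApcMinL. ApcMin cells held 2552 Tff2 UMIs, or 31.6 CPM (30.3 to 32.8), against 83.8 CPM (74.7 to 93.8) in the empty droplets. VApcMinL cells held 4238, or 49.6 CPM (48.1 to 51.1), against 30.05 CPM (25.5 to 35.2). Tff2 in cells was thus below the empty droplets in ApcMin, at 0.376 of their level, and above them in VApcMinL, at 1.65 times. Without the barcode with the most Tff2 in each library the values were 0.0526 and 0.677, below the empty droplets in both.

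Tff1, the gastric surface trefoil factor, was at 6.62 CPM (6.07 to 7.20) in ApcMin cells, above the 2.77 CPM (1.33 to 5.09) of the empty droplets. In VApcMinL it was at 2.90 CPM (2.55 to 3.29) against 2.13 CPM (1.06 to 3.82), intervals that overlap. Outside the barcodes rich in Tff1 by the rule above, it was at 0.0810 and 0.0331 of the empty-droplet level. Muc6, the gland mucin, was at 1.71 CPM (1.43 to 2.02) in ApcMin cells against 4.43 CPM (2.53 to 7.19) in the empty droplets. In VApcMinL it was at 3.16 CPM (2.80 to 3.56) against 4.07 CPM (2.52 to 6.22), intervals that overlap. Muc5ac, the surface mucin, had 20 UMIs in ApcMin and 22 in VApcMinL, and none in the empty droplets of either library, where a count of 0 allows up to 0.830 and 0.582 CPM. Tff3, the goblet trefoil factor, was at 1.95 CPM (1.66 to 2.28) in ApcMin and 11.99 CPM (11.3 to 12.7) in VApcMinL, far below its 25.2 and 249 CPM in the empty droplets. Muc2, the goblet mucin, was at 0.519 CPM (0.374 to 0.702) and 0.984 CPM (0.785 to 1.22), again below its 9.68 and 11.6 CPM in the empty droplets. The plot of levels in cells and in empty droplets shows the goblet pair and Muc6 on the low side in both libraries, Muc6 in VApcMinL within counting error.

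**Figure D1:**
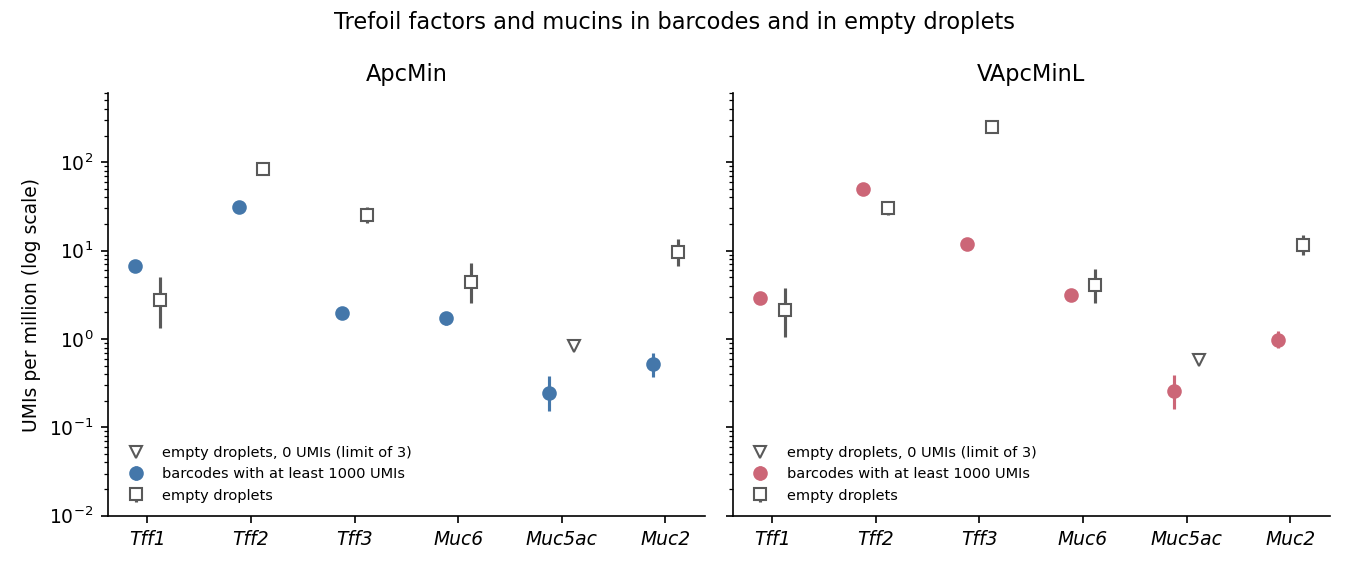
UMIs per 1000000 of each gene on a log axis, in barcodes with at least 1000 UMIs (filled circles) and in the empty droplets (open squares), for each library, with exact 95% Poisson intervals as bars where they exceed the symbol; the triangle for Muc5ac is the limit of 3 UMIs where none was counted. Tff3 and Muc2 were lower in cells than in empty droplets in both libraries, and Tff2 was lower in ApcMin (31.6 against 83.8) and higher in VApcMinL (49.6 against 30.05).

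A single barcode held most of the Tff2 UMIs in each library. In ApcMin 152 barcodes had a Tff2 UMI, but 1 barcode held 2197 of the 2552 UMIs (86.1%), and 4 barcodes held 90%. In VApcMinL 138 barcodes had a Tff2 UMI, 1 barcode held 2501 of the 4238 UMIs (59.0%), and 13 barcodes held 90%. A single UMI was all that 111 of the 152 and 87 of the 138 barcodes had. Of the 7588 genes with at least 1000 UMIs in ApcMin, only Bpifb5 and Tff2 itself had so large a share in 1 barcode, and of 8409 such genes in VApcMinL none but Tff2 did. With at least 100 UMIs, 5 of 13461 genes in ApcMin and 19 of 14012 in VApcMinL had a share at least as large as that of Tff2, Tff1 among them in both and Gkn3 in VApcMinL. The median gene with at least 1000 UMIs had 0.787% and 0.661% of its UMIs in its top barcode.

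Tff1 was as concentrated, and Muc6 less so. Tff1 had 1 barcode with 492 of 535 UMIs (92.0%) in ApcMin and 1 with 164 of 248 (66.1%) in VApcMinL. The top barcode of Muc6 held 62 of its 138 UMIs (44.9%) in ApcMin and 104 of 270 (38.5%) in VApcMinL, and 10 and 19 barcodes held 90%. All 20 Muc5ac UMIs of ApcMin were in 1 barcode. The goblet genes were spread more widely, with 90% of Muc2 UMIs held by 32 barcodes in ApcMin and 67 in VApcMinL. For Tff3 in VApcMinL, 575 barcodes held 90%. In ApcMin, however, 1 barcode held 79 of the 158 Tff3 UMIs. The plot of cumulative shares sets these curves side by side.

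**Figure D2:**
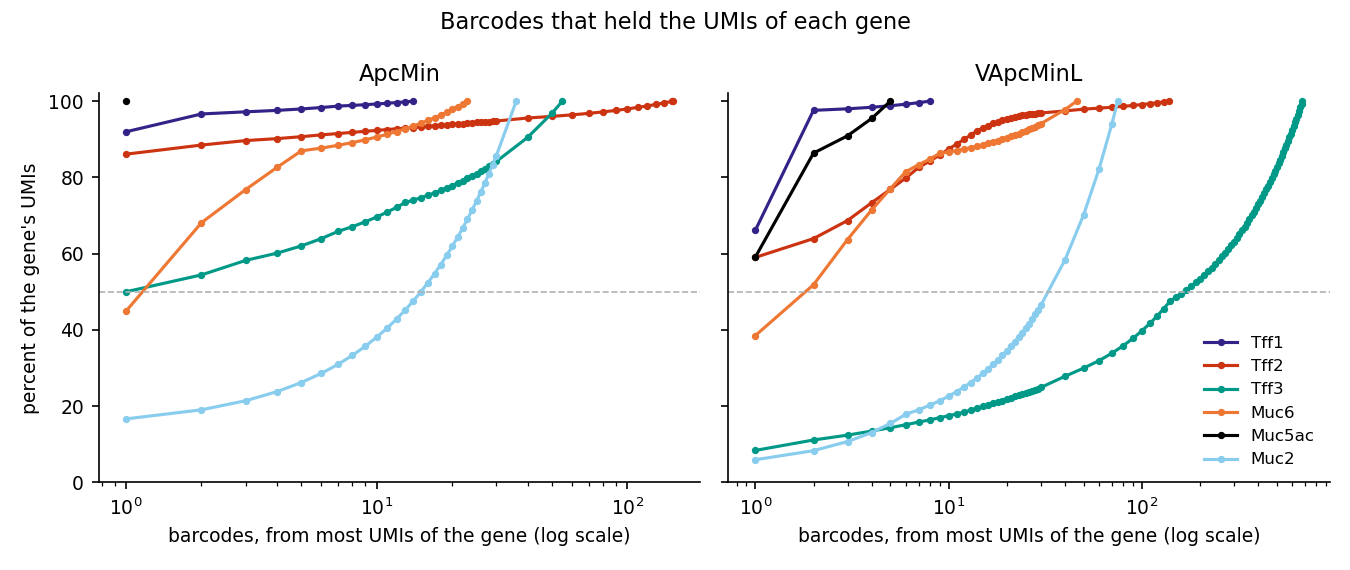
Percent of each gene's UMIs (y axis) held by the barcodes with the most of that gene, counted from the first barcode on (x axis, log scale), in barcodes with at least 1000 UMIs of each library; the dashed line marks 50%. The Tff2 curve starts at 86.1% with 1 barcode in ApcMin and at 59.0% in VApcMinL, and the Muc2 curves start at 16.7% and 5.95%.

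By the rule above 4 barcodes were rich in Tff2 in ApcMin and 20 in VApcMinL, and they held 88.3% and 94.8% of the Tff2 UMIs. Outside them Tff2 was at 3.72 and 2.58 CPM, which is 0.0443 and 0.0858 of the empty-droplet level. The values nearest the threshold were 13 Tff2 UMIs in barcodes of 3688 and 4919 UMIs on the inside in ApcMin and 9 and 8 UMIs in barcodes of 4096 and 2191 UMIs on the outside. In VApcMinL they were 10 and 16 UMIs inside, in barcodes of 2428 and 3680 UMIs, and 8 and 7 outside. Rich barcodes of the other members were fewer, with 2 in each library for Tff1, 3 and 5 for Muc6, 1 in each for Muc5ac, 1 and 0 for Tff3 and none for Muc2, where 0 of 7844 and 0 of 9593 allow shares up to 0.0382% and 0.0313%.

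Most Tff2-rich barcodes were pancreatic acinar in their transcripts. In VApcMinL 17 of the 20, and in ApcMin 3 of the 4, had at least 10 UMIs of Cpa1, the acinar gene for carboxypeptidase A1. The 17 VApcMinL barcodes, of 2428 to 62783 UMIs, held 1424 Tff2 and 12118 Cpa1 UMIs, and all lay in cluster 16, a pancreatic acinar-like cluster of 59 barcodes led by Prss2, Ctrb1 and Cela2a. Their 1424 UMIs were 33.6% of the library's Tff2. Of the 3 in ApcMin, of 3688 to 6237 UMIs, 56 Tff2 and 523 Cpa1 UMIs were counted, or 2.19% of the library's Tff2. Those 3 fell in cluster 1, whose leading genes are acinar enzymes but whose 1198 barcodes mostly lack Cpa1 (10.0% had a UMI), so that cluster was left unnamed.

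Within these acinar barcodes Tff2 was well under 1% of the transcripts. In VApcMinL it ranged from 0.157% to 0.518% of a barcode's UMIs with a median of 0.385%, the lowest in a barcode with 82.4% mitochondrial UMIs, and in ApcMin from 0.264% to 0.481%. Tff2 per Cpa1 UMI was 0.118 (0.111 to 0.124) in VApcMinL and 0.107 (0.0798 to 0.141) in ApcMin, in barcodes picked for their Tff2. Over all barcodes with at least 10 Cpa1 UMIs, whatever their Tff2, it was 0.114 (0.108 to 0.120) in the 36 of VApcMinL and 0.0622 (0.0521 to 0.0737) in the 40 of ApcMin, and these intervals do not overlap. Of these barcodes 33 and 24 had a Tff2 UMI. Neither Muc6 nor Gkn3 had a UMI in any of the 36 VApcMinL and 40 ApcMin barcodes with at least 10 Cpa1 UMIs, which allows shares up to 8.33% and 7.50% of barcodes with a captured UMI at these depths, not of barcodes that express the gene. Epcam was seen in 5 of the 17, and the barcodes of 51939 and 62783 UMIs also held 278 and 391 UMIs of Fabp1, an enterocyte fatty acid-binding protein. Tff2 was at its highest acinar counts in these deep barcodes, at 209, 198 and, in a barcode of 47969 UMIs with no Epcam, 201.

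**Figure D3:**
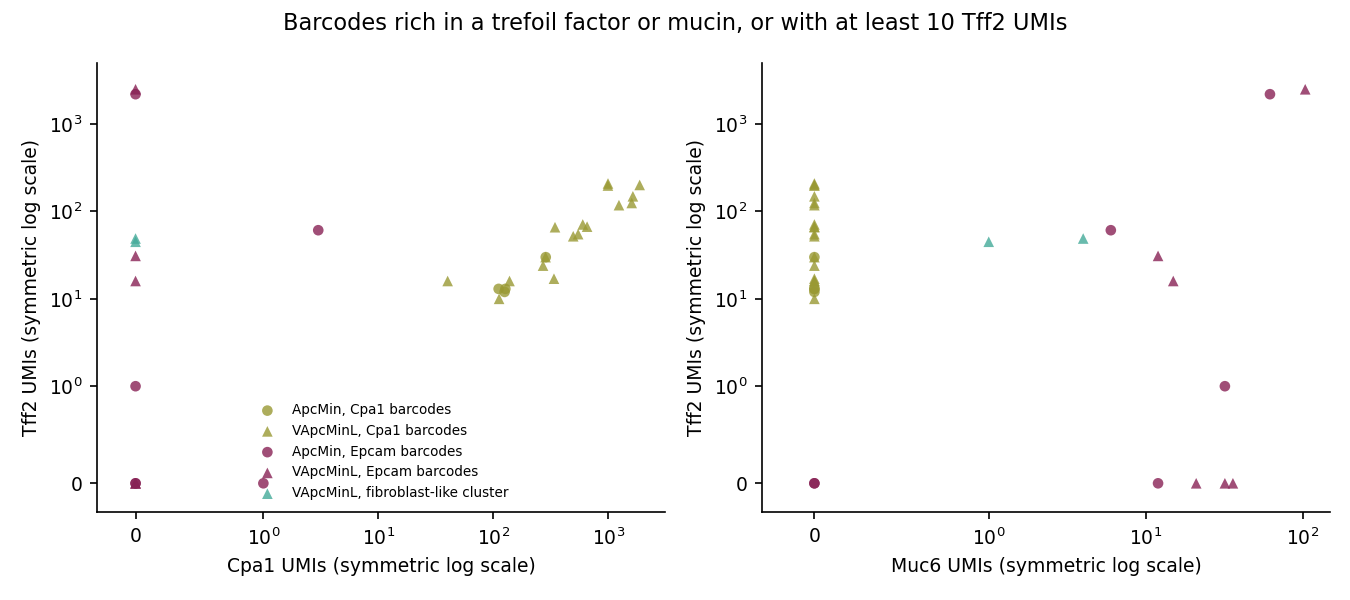
Tff2 UMIs (y axis) against Cpa1 UMIs (left) and Muc6 UMIs (right) on symmetric log axes, 1 point per barcode that was rich in a member or had at least 10 Tff2 UMIs; circles are ApcMin and triangles VApcMinL, and colours mark barcodes with at least 10 Cpa1 UMIs, barcodes of the fibroblast-like cluster and the remaining barcodes, which had Epcam. Barcodes with at least 10 Cpa1 UMIs had 10 to 209 Tff2 UMIs and no Muc6, whereas both barcodes above 2000 Tff2 UMIs had 62 and 104 Muc6 UMIs and no Cpa1.

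The barcode with the most Tff2 in VApcMinL was of another kind. It had 6298 UMIs, of which 2501 were Tff2 (39.7%), followed by 597 of Gkn3 (gastrokine 3, a product of antral and mucous neck cells), 143 of Agr2 (a disulfide isomerase that folds mucins) and 104 of Muc6. It had 6 UMIs of Epcam, 6 of Aqp5 (a water channel of Brunner and pyloric glands), none of Tff1, Tff3, Muc2, Muc5ac or Cpa1, and 0.318% mitochondrial UMIs over 1261 detected genes. At the empty-droplet share it would have held 0.189 Tff2 UMIs. It lay in cluster 9, 366 barcodes led by S100g, Gkn3 and mitochondrial genes, of which 32.5% had Epcam and which stayed unnamed.

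The barcode with the most Tff2 in ApcMin was the deepest of all 7844, with 410474 UMIs and 11066 detected genes. It held 2197 Tff2 UMIs (0.535% of its UMIs, 63.8 times the empty-droplet share), 492 of Tff1, 62 of Muc6, 107 of Gkn3, 81 of Gkn1 (gastrokine 1, of surface mucous cells), 339 of Agr2 and 1157 of Epcam. Ptprc, which encodes CD45, had 1 UMI there, although clustering had put it in the B cell-like cluster 3. Depth moved with these counts and its part in them was not tested. The doublet caller had not worked by its own threshold (2 and 3 barcodes called), and none of the barcodes described here was among those with the highest doublet scores.

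A pair of VApcMinL Tff2-rich barcodes lay in the fibroblast-like cluster 13, which is led by Wif1 and Nrg1. They had 9500 and 7482 UMIs, 49 and 45 of Tff2, 18 and 9 of Gkn3, 4 and 1 of Muc6, 11 and 9 of Wif1, and none of Epcam or Cpa1. The empty-droplet share would give 0.285 and 0.225 Tff2 UMIs. Tff2 per Gkn3 UMI was 3.48 (2.25 to 5.56) in the pair and 4.19 (3.83 to 4.59) in the 6298-UMI barcode, and Muc6 per Tff2 UMI was 0.0532 (0.0169 to 0.129) and 0.0416 (0.0338 to 0.0506). The pair thus held the same genes in ratios whose intervals overlap those of the richest barcode, and where those UMIs came from was not tested.

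Genes that stood highest in the 20 Tff2-rich VApcMinL barcodes, against 603 other Epcam-positive barcodes of the epithelial-like cluster, followed the acinar majority. Of all genes tested 1.42% were at least 4-fold higher there in VApcMinL and 1.85% in ApcMin. The 20 with the largest folds were Tff2 and 19 others, and 11 are on the acinar marker list (Prss2, Ctrb1, Cela2a, Clps, Pnlip, Cpa1, Cela3b, Cpb1, Try4, Cela1 and Cel). Prss2, a trypsinogen, averaged 653 UMIs per 10000 in VApcMinL and 512 in ApcMin, against 0.140 and 0.172 in the epithelial barcodes. Others among them were the serine proteases 2210010C04Rik, Try5 and Ctrl, the lipase-related Pnliprp1, the ribonuclease Rnase1, the zymogen granule protein Sycn and the kallikrein Klk1. Each of the 20 was seen in at least 17 of the 20 barcodes. In ApcMin the smallest of the 20 folds was 95.9, for Klk1, and each gene was seen in 3 or 4 of the 4 barcodes. A stricter rule of 20 UMIs and 20 times left 16 rich barcodes and the same 20 genes.

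Because the acinar barcodes outnumber the rest, the lists for mucous biology were also read in the barcodes rich in Muc6, Tff1 or Muc5ac (Muc6/Tff1/Muc5ac-rich barcodes). There were 5 in ApcMin, of 54080 to 410474 UMIs, and 6 in VApcMinL, of 5654 to 354549 UMIs. This set was chosen after its values were seen. All 11 had Epcam, with 2298 and 1366 UMIs in all, despite the Epcam- sort, and they held 88.5% and 60.1% of the Tff2 UMIs. Among all genes tested 4.84% in ApcMin and 5.21% in VApcMinL were at least 4-fold higher in these than in the 121 and 603 epithelial reference barcodes, and 4.69% and 4.23% at least 4-fold lower. The reference was shallower, with medians of 11926 and 26487 UMIs against 111748 and 40101.

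Gastric genes were high in the Muc6/Tff1/Muc5ac-rich barcodes of both libraries. Of the gastric and pyloric list, 8 genes could be tested in ApcMin and 7 in VApcMinL, and 4 were at least 4-fold higher in each, with none lower (median log2 fold 2.15 and 4.33, against 0.35 and 0.13 over all genes). Gkn3 averaged 4.84 UMIs per 10000 in ApcMin and 161 in VApcMinL, the latter mostly from the 6298-UMI barcode, and was seen in 4 barcodes of each. Ctse, the gastric protease cathepsin E, was seen in all 5 and all 6, at 3.87 and 5.68 per 10000 against 0.211 and 0.0616 in the reference. Gkn1 averaged 1.92 per 10000 against 0.0704 in ApcMin, and 1.91 in VApcMinL, where the reference had none. The remaining gene past 4-fold was Aqp5 in ApcMin and Cldn18, a gastric tight junction claudin, in VApcMinL. Cldn18 was seen in 2 of the 6 there, with 11 UMIs in the 5654-UMI barcode and 9 in that of 114258 UMIs. Most of its mean thus came from the 5654-UMI barcode. Aqp5 had 7 UMIs in these barcodes of VApcMinL, too few to be tested. The acid pump genes of parietal cells, Atp4a and Atp4b, were at 0 in those of ApcMin, and Atp4a had 1, 1 and 2 UMIs in 3 of VApcMinL.

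Intestinal genes were low in the same barcodes. Of 12 genes of intestinal identity 7 were at least 4-fold lower in each library and none higher (median log2 fold -2.38 and -2.87). Fabp1 had 1 UMI in all 5 ApcMin barcodes and averaged 2.37 per 10000 in VApcMinL, against 41.5 and 90.9 in the reference. Cdx2, the intestinal master regulator, was less far down, at 0.155 against 0.582 per 10000 in ApcMin and 0.232 against 0.755 in VApcMinL, and it was detected in 3 barcodes of each. Among other mucins the membrane mucins Muc3 and Muc13 were at least 4-fold lower in both libraries, of 5 tested, and none was higher.

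Genes of mucus folding and glycosylation were mixed. In VApcMinL 8 of 26 tested were at least 4-fold higher (Agr2, Spdef, Creb3l1, Qsox1, Gcnt3, Galnt3, Galnt12 and Fut2), and in ApcMin 4 of 23 were (Foxa3, Qsox1, Galnt3 and Dnajc10), with 1 lower in each (Galnt6 in VApcMinL and Zg16 in ApcMin). The median log2 fold was 0.86 in VApcMinL and 1.38 in ApcMin. Without the barcode with the most Tff2 the counts were 5 of 26 in VApcMinL (Agr2, Gcnt3, Galnt3, Galnt12 and Fut2) and 1 of 18 in ApcMin (Foxa3), with 2 lower in each. Over all genes 6.49% in VApcMinL and 5.13% in ApcMin were then at least 4-fold higher, so the ApcMin count was near that share. Galnt3, which starts O-glycan chains, was then 6.41-fold higher in VApcMinL and 3.19-fold in ApcMin. Agr2 averaged 40.1 UMIs per 10000 in VApcMinL and 2.71 without the 6298-UMI barcode, against 0.0281 in the reference, and in ApcMin it was 2.61-fold higher. Of the duodenal and antral list, 2 of 10 were higher in ApcMin (Onecut2 and Sox9) and 1 of 12 in VApcMinL (Car2), and Slc26a6, an anion exchanger of enterocytes, was lower in both. Neither the 3 testable proposed trefoil receptors (Cxcr4, Ackr3 and Egfr) nor the ileum and colon list, with 4 and 5 tested, had a gene past 4-fold.

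Wnt response genes were also high on average in the same barcodes. Of 11 tested in ApcMin 7 were at least 4-fold higher (Lgr5, Axin2, Nkd1, Notum, Prox1, Lef1 and Cd44), and of 10 in VApcMinL 6 were (Lgr5, Ascl2, Nkd1, Notum, Prox1 and Cd44), none lower, with medians of 2.59 and 2.29 on the log2 scale. Notum, a secreted Wnt inhibitor induced by Wnt signalling, averaged 1.52 and 0.742 UMIs per 10000, against 0.00964 and 0.00414 in the reference. It was seen in 5 of 5 and 4 of 6 of these barcodes. Prox1, a transcription factor known from intestinal tumours, was 35.6-fold and 11.2-fold higher. Lef1 itself had 16 UMIs in the ApcMin barcodes and 7 in those of VApcMinL, and whether these tags lie in the deleted part of the gene was not examined. The barcode richest in Tff2 in VApcMinL had no UMI of Lgr5, Notum, Nkd1, Axin2, Prox1 or Cd44, and neither had the 5654-UMI barcode. Single barcodes weighed heavily in some of these means. In VApcMinL the 10288-UMI barcode held 5 Lgr5 UMIs, and the 69914-UMI barcode held 38 Prox1 and 13 Nkd1 UMIs. In ApcMin the 54080-UMI barcode held 16 Lgr5 and 71 Prox1 UMIs. Folds without these barcodes were not computed.

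**Figure D4:**
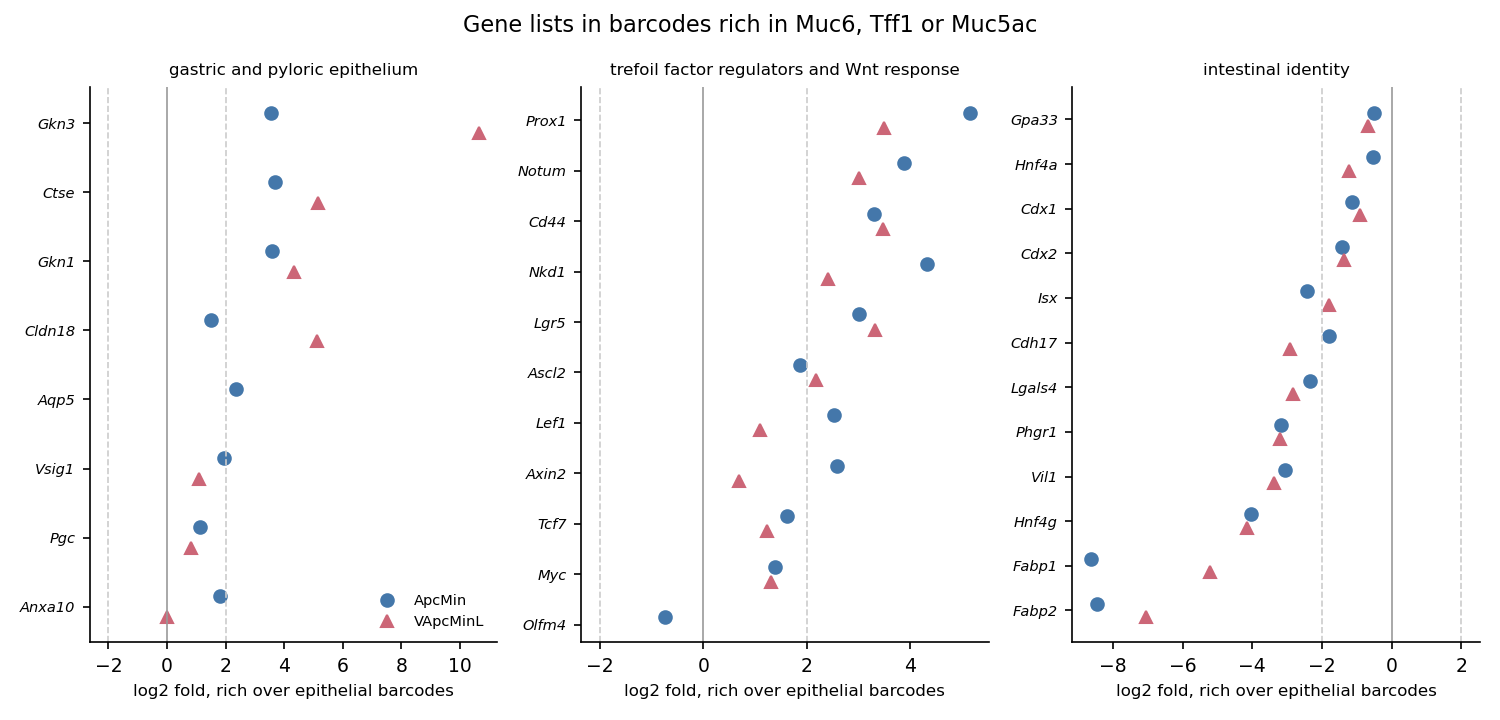
Log2 fold (x axis) of the tested genes of 3 lists in Muc6/Tff1/Muc5ac-rich barcodes over epithelial reference barcodes of the same library, with a pseudocount of 0.1 per 10000; circles are ApcMin, triangles VApcMinL, and dashed lines mark 4-fold. Genes of the gastric and Wnt lists lie at or right of 0 except Olfm4 in ApcMin (Gkn3 and Prox1 furthest on average), and all 12 genes of intestinal identity lie to the left of 0, with Fabp1 and Fabp2 lowest.

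With epithelial barcodes of at least 50000 UMIs and 50 Epcam UMIs as the reference (14 and 75 barcodes, median 59310 and 56654 UMIs), the gastric list had the same 4 genes past 4-fold in each library, where 1.73% and 3.50% of all genes were. The Wnt list then had 5 of 11 higher in ApcMin (Lgr5, Notum, Prox1, Lef1 and Cd44) and 1 lower (Olfm4), and 4 of 10 higher in VApcMinL (Lgr5, Notum, Prox1 and Cd44), with Nkd1 past 4-fold in neither. The mucus folding and glycosylation list had 4 of 22 higher in ApcMin (Agr2, Foxa3, Galnt3 and Galnt12) and 3 of 23 in VApcMinL (Agr2, Galnt3 and Galnt12). Counted the other way, 7 ApcMin barcodes with at least 10 Epcam UMIs had 3 or more UMIs of Notum and Nkd1 together, and 5 of them were rich in Muc6, Tff1 or Muc5ac, 1 more had a UMI of Tff1, Tff2, Muc6 or Muc5ac, and 1 had none. In VApcMinL the corresponding counts were 3, 4 and 5 of 12. Of the Epcam barcodes below that Wnt threshold only 1.61% (1 of 62) and 2.48% (12 of 483) had a UMI of any of these 4 genes. Of the 6 Muc6/Tff1/Muc5ac-rich barcodes of VApcMinL, however, only 3 passed the threshold and 2 lay below it. The 6298-UMI barcode, with 6 Epcam UMIs, was not counted. Barcodes above the threshold were deeper, at medians of 111748 and 68027 UMIs against 26539 and 35856, and what depth adds was not tested.

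The Muc6/Tff1/Muc5ac-rich barcodes differed among themselves in which members they held. In ApcMin a barcode of 124563 UMIs had 25 Tff1, 61 Tff2, 6 Muc6 and 139 Gkn3 UMIs, and was rich in Tff1 only. One of 54080 UMIs had 32 Muc6 UMIs and 1 of Tff2, and one of 110610 had 12 of Muc6, 101 of Gkn3 and none of Tff2. The 20 Muc5ac UMIs sat in a barcode of 111748 UMIs with 38 of Gkn1 and no other member. Muc6 without Tff2 was also found in VApcMinL, in barcodes of 69914 (36 Muc6 UMIs), 10288 (32) and 5654 UMIs (21). The last also had 13 Muc5ac and 11 Cldn18 UMIs, and mitochondrial shares of 42.9% and 24.5% stood out in the 10288-UMI and 5654-UMI barcodes. Barcodes of 354549 and 114258 UMIs were rich in Tff1, with 164 and 78 UMIs beside 31 and 16 of Tff2 and 93 and 100 of Gkn3.

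The sets overlapped in single barcodes. Of the Muc6-rich barcodes 1 of 3 in ApcMin (33.3%) and 1 of 5 in VApcMinL (20.0%) were also Tff2-rich, which is 25% and 5% of the Tff2-rich barcodes. Tff1-rich barcodes were Tff2-rich in 1 of 2 cases in ApcMin and in none of 2 in VApcMinL. Over all barcodes 4 of 7844 and 20 of 9593 were Tff2-rich, a far lower share, and sets this small do not measure the overlap. The 124563-UMI ApcMin barcode, with 61 Tff2 UMIs, missed the rule at 5.84 times the empty-droplet share. Over all barcodes Gkn3 was the gene most alike to Muc6 in both libraries, with Pearson's r of 0.30 in ApcMin and 0.40 in VApcMinL between log2(1 + UMIs per 10000) values. Among the nearest to Tff2 were Klk1, Pla2g1b, Amy2a5 and Gp2 in ApcMin (r 0.60 to 0.62) and Pnliprp1, Klk1, Cel and Ctrl in VApcMinL (0.67 to 0.69), which are pancreatic secretory genes. For Tff1 they were Tspan1, Agr2 and Cldn2 in ApcMin (0.53 to 0.62). These values describe 7844 and 9593 barcodes of 1 library each, nearly all without the gene, and for Tff1 in VApcMinL, Muc5ac and Muc2 they rest on 1 to 75 barcodes with a UMI. The Tff1 values of ApcMin rest on 14 barcodes with a UMI, and those of Muc6 on 23 in ApcMin and 46 in VApcMinL.

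The goblet pair gave no barcode population. The single Tff3-rich barcode, in ApcMin, had 1474 UMIs with 79 of Tff3, 109 of Spink4 and 81 of Zg16 (goblet cell products, the latter also acinar), 23 of Agr2, 4 of Epcam, 3 of Tff1, 1 of Muc2 and no mitochondrial UMIs. In VApcMinL 677 barcodes (7.06%) had a Tff3 UMI, 537 of them a single one, and the share fell to 1.64% when each barcode was thinned to 1000 UMIs. Tff3 had UMIs in all 18 VApcMinL clusters, erythroid-like, glial-like and endothelial-like ones among them, and its level was below the empty droplets in each of the 18, at 0.0115 to 0.224 of it. The top was cluster 9 (55.9 CPM), where the 354549-UMI barcode alone had 86 Tff3 UMIs. That level was above the 24.1 CPM of ranks 90000 to 180000. Of the 634 barcodes of the epithelial-like cluster 6, 23.8% had a Tff3 UMI, but its level of 17.1 CPM was close to the 16.4 CPM of the myeloid-like cluster 5. In ApcMin the epithelial-like cluster 7 led with 8.69 CPM without the rich barcode, 0.345 of the empty-droplet level, against at most 1.86 CPM in any other cluster. Tff2 was above the empty droplets outside rich barcodes only in the VApcMinL acinar-like cluster. With resolution 0.5, an acinar-like cluster of 69 barcodes split off in ApcMin too, at 3.25 times them.

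Muc2 was at or below 0.132 of the empty-droplet level in every ApcMin cluster and at or below 0.663 in every VApcMinL cluster, the highest being the acinar-like cluster 16 with 4 UMIs. Its largest count in 1 barcode was 7, in the 410474-UMI ApcMin barcode. Of 10 other genes on the goblet marker list, 6 in ApcMin and 7 in VApcMinL were below their empty-droplet level in cells. The share of all genes below theirs was not computed, so these counts do not set goblet genes apart from others. Fcgbp and Clca1 had 8 and 5 UMIs in ApcMin cells and 63 and 4 in VApcMinL. Zg16, which acinar cells also make, was at 11.8 CPM in ApcMin cells against 239 CPM in the empty droplets and at 71.4 against 456 CPM in VApcMinL, and Spink4 was at 2.71 against 38.2 and 14.4 against 373 CPM. The genes above it in both libraries were Rep15, at 4.06 against 1.11 CPM in ApcMin, Sytl2, at 22.9 against 8.85 CPM, and Ern2, with 24 and 21 UMIs in cells. The plot by cluster places these genes against the empty-droplet line.

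**Figure D5:**
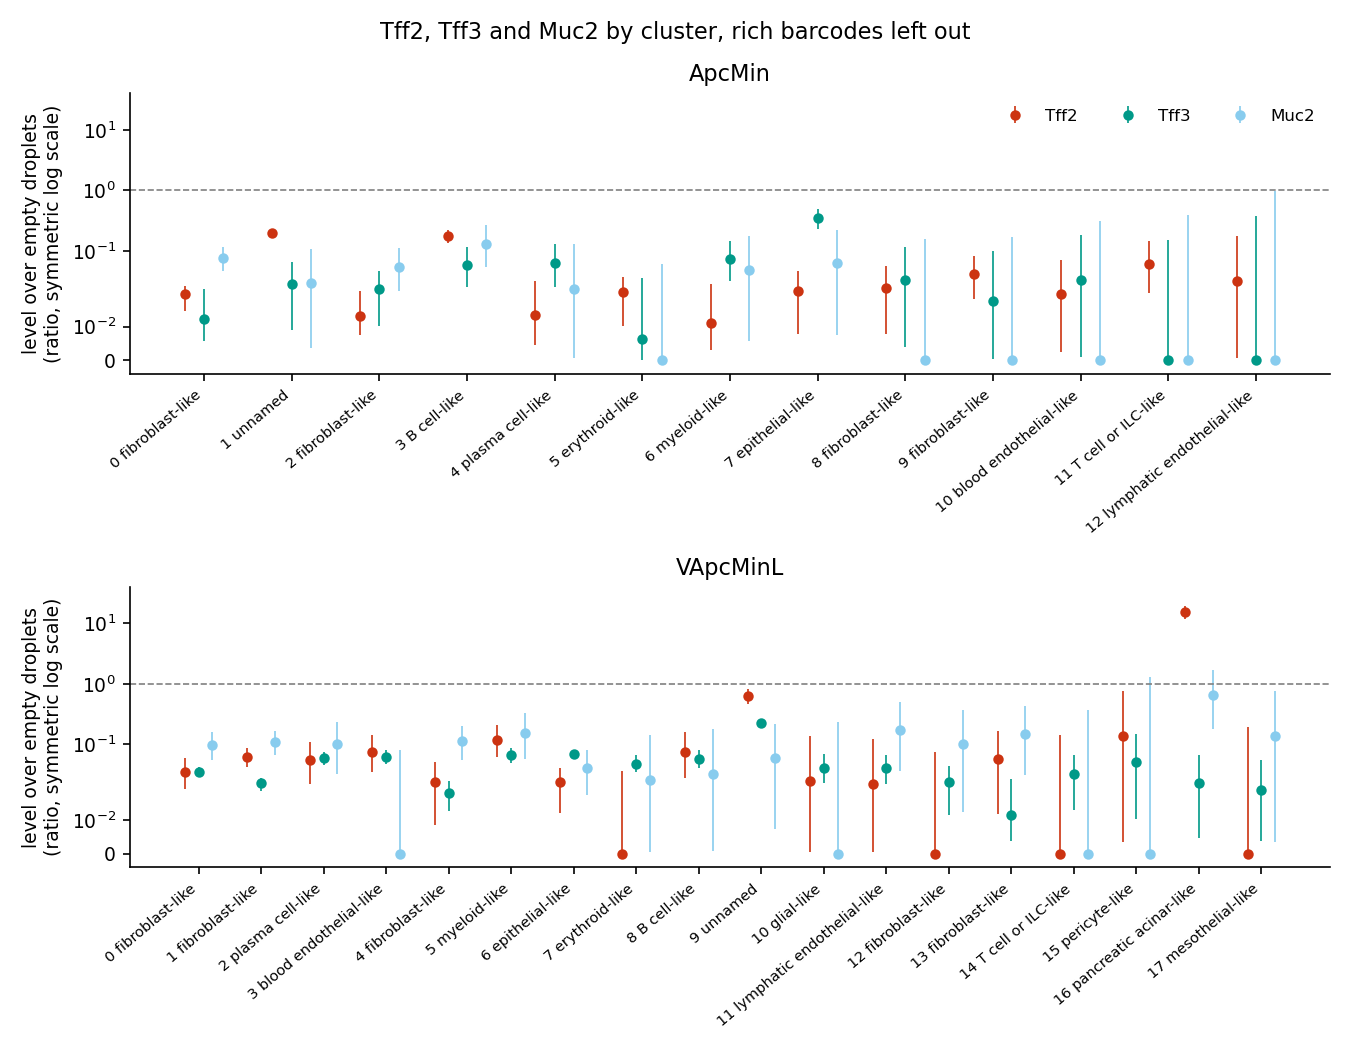
Level of Tff2, Tff3 and Muc2 in each cluster, with rich barcodes of the gene left out, divided by its level in the empty droplets of the same library (y axis, symmetric log scale, with exact 95% Poisson intervals of the cluster's count); the dashed line marks equality. With the empty droplets as defined above, Tff3 and Muc2 lie below the line in every cluster. Tff2 lies above it only in the VApcMinL pancreatic acinar-like cluster 16, at 15.3. Against ranks 90000 to 180000, Tff3 would lie above it in VApcMinL cluster 9 (55.9 against 24.1 CPM). Within counting error so would Tff3 in ApcMin cluster 7 and Tff2 in ApcMin cluster 1.

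Empty droplets told the same genes apart by library. Tff3 was at 249 CPM in VApcMinL and 25.2 CPM in ApcMin, a ratio of 9.91 (8.01 to 12.4), with Spink4 at 373 and 38.2 CPM. Tff2 went the other way, with a ratio of 0.358 (0.293 to 0.436), as did Cpa1 with 104 and 421 CPM. For Muc6 the ratio was 0.920 (0.457 to 1.89), for Tff1 0.771 (0.297 to 2.02) and for Muc2 1.20 (0.779 to 1.88), intervals that include 1. Tff2 per Cpa1 UMI in the empty droplets was 0.199 (0.175 to 0.225) in ApcMin and 0.290 (0.241 to 0.348) in VApcMinL, above the 0.107 and 0.118 of the acinar barcodes. The sources of these free transcripts were not tested.

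Of all Tff2 UMIs in a library, 68.6% in ApcMin and 86.7% in VApcMinL were in barcodes of at least 1000 UMIs. For Tff3 the shares were 34.7% and 20.6%, and for Muc2 32.3% and 31.8%. Tff1 stood at 91.5% and 92.2% and Muc6 at 73.8% and 82.1%. UMIs of Tff3 and Muc2 were thus counted mostly outside these barcodes, and those of Tff1, Tff2 and Muc6 mostly within them. The level in the empty droplets depended on the ranks taken. In ranks 90000 to 180000, Tff2 was at 14.7 CPM in ApcMin and 32.7 CPM in VApcMinL, from 11 and 23 UMIs. Tff3 fell there to 4.02 and 24.1 CPM. Against those ranks Tff3 was not below in every cluster. VApcMinL cluster 9 lay above, at 55.9 CPM. So did ApcMin cluster 7, at 8.69 CPM outside the rich barcode, but on 3 empty-droplet UMIs and with overlapping intervals. Tff2 outside rich barcodes was then also above in ApcMin cluster 1, at 16.3 CPM, with overlapping intervals. Muc2 had 0 and 1 UMIs in those ranks, too few to place its clusters.

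The design sets VApcMinL beside ApcMin, and over all cells Tff2 was 1.57 times as high in VApcMinL (1.497 to 1.65, counting error only). Over 17857 genes, 14.2% were at least 2-fold higher and 2.98% at least 2-fold lower in VApcMinL. Of the 6 members only Tff3 was at least 2-fold higher, at 6.14 times (5.19 to 7.30), and only Tff1 at least 2-fold lower, at 0.439 times (0.376 to 0.511). The ratios of Muc6, Muc2 and Muc5ac were 1.85 (1.504 to 2.29), 1.89 (1.29 to 2.81) and 1.04 (0.542 to 2.01). In each library 1 barcode held most of the Tff2 UMIs, and the Tff2 ratio depended on which rich barcodes were counted. Without the top barcode of each library the ratio was 4.61, and without all Tff2-rich barcodes it was 0.693. With the study's general limits on mitochondrial UMIs and detected genes it was 14.3. The gene limit removed the 410474-UMI barcode, and whether the study applied it to these lamina propria libraries is not stated. The Tff1 ratio turned to 5.43 without the barcode with the most Tff2 in each library and was 0.273 with the study's limits. That of Tff3 rose to 12.7 with at least 2000 UMIs per barcode, which leaves out the Tff3-rich barcode, and fell to 2.14 when each barcode was thinned to 1000 UMIs. The Muc6 ratio was 9.35 with the study's limits and 5.85 thinned, and that of Muc5ac 14.5 thinned. Genotype, library and the number of captured barcodes rich in these genes cannot be told apart.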

How the data were processed

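Sorted lamina propria cells were profiled with 10x Chromium 3′ v3 chemistry. Counts were deposited by the authors as raw, unfiltered UMI counts per gene and barcode, made with Cell Ranger (2.1.1 in the submitters' processing notes, which also name Seurat 3.1.1; the matrix headers give software version 3.1.0) on mm10/GRCm38. A 3′ count is 1 per transcript and is not scaled by length. The authors' cell calls and annotation were not used here.

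The 6 genes, the gene lists and the tests were chosen with earlier results of these data known. With 1 library per genotype no test was run. Intervals are exact Poisson for levels, Clopper-Pearson for shares and conditional binomial for ratios, at 95%, and cover counting error only. Where 0 UMIs were counted, 3 were taken as the limit. Barcodes of at least 1000 UMIs (80873618 and 85394954 UMIs in all) were clustered per library without the 6 genes (2000 variable genes, 20 components, 20 neighbours, resolution 0.2; scanpy 1.11.5, igraph 0.11.9). A cluster was named "X-like" where its markers of a class were detected on average 0.2 more often (as a share of barcodes) than in other clusters, at least 3 of them in 25% of barcodes, and where no other class led its top genes; both limits were set after the values were seen. Folds compare mean UMIs per 10000 with a pseudocount of 0.1 for genes that reached 10 UMIs over both sets of barcodes, and library ratios those with at least 20. Genes named beside the members were the 20 with the largest fold in Tff2-rich barcodes, the 5 (Tff2) or 3 most correlated, and list members; further ones in rich barcodes were named after their values were seen. One gene that this rule names is not reported here. Doublets were kept. Of the symbols 35 are used more than once, none of them a member's. Scripts were tested on simulated data. Alternatives were other UMI minimums, an order-of-magnitude cell call, the study's general filters, doublet removal, thinning to 1000 UMIs, other rich thresholds and other empty-droplet ranks.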

Additional observations from a re-analysis of the deposited data

How the results depend on the processing

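The VApcMinL to ApcMin ratio of Tff2, 1.57 as reported, was 1.78 with cells called by the order-of-magnitude rule, 14.3 with at most 20% mitochondrial UMIs and 1% trimmed by genes, 5.24 thinned to 1000 UMIs and 1.35 without hemoglobin and immunoglobulin UMIs in the denominator. It turned to 0.693 with the Tff2-rich barcodes left out and was 4.61 without the barcode with the most Tff2 in each library, a setting chosen after seeing the data. The Tff1 ratio turned to 5.46 and 5.43 under the last 2 settings. That of Muc5ac, on 20 and 22 UMIs, turned to 0.424 with the order-of-magnitude rule and 0.892 with the other denominator, and was 14.5 thinned. The Tff3 ratio was 13.6 with the order-of-magnitude rule and 2.14 thinned, and that of Muc6 9.35 with the mitochondrial and gene limits and 5.85 thinned.

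Tff2-rich barcodes numbered 0 and 1 instead of 4 and 20 after thinning, where 10 UMIs are 1% of a barcode, and in ApcMin 11 with 5 UMIs and 5 times and 2 with 20 UMIs and 20 times. In ApcMin the barcodes holding 50% of the Tff2 UMIs rose from 1 to 19 with the mitochondrial and gene limits, 12 after thinning and 13 without the top barcode, and in VApcMinL from 1 to 5 without it. Tff2 in ApcMin cells over empty droplets, 0.376, was 0.0441 with the mitochondrial and gene limits, 0.125 thinned, 0.0526 without the top barcode and 2.14 against ranks 90000 to 180000, so that it reversed. In VApcMinL, 1.65 became 1.40 against ranks 20000 to 45000 and 0.677 without the top barcode. The gene limits removed the 410474-UMI barcode, with 11066 genes against an upper limit of 5695. Of 118 values under an alternative, 86 stayed within the counting interval or 1.5 times the reported count. For the results on Tff2, 46 stayed, 17 moved beyond these limits and 3 turned to the other side of 1. For the other members and the gene lists the counts were 40, 8 and 4.

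No paired analysis was possible because only a single library stands for either genotype. With so few barcodes holding Tff1, Tff2, Muc6 or Muc5ac, capture of single cells limits every level, and no interval covers it.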
